A study of Mus musculus with 4 samples.

Results

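The S100 calcium-binding proteins were followed through tumour-associated macrophages of mouse liver tumours as 10 genes, chosen by symbol from the 24784 genes of the deposited table: S100a1, S100a4, S100a6, S100a8, S100a9, S100a10, S100a11, S100a13, S100a14 and S100a16. Polyadenylated RNA was sequenced from sorted cells. The mice were males, 6 to 8 weeks of age, and carried liver tumours after receiving Hepa 1-6, a mouse hepatoma line. The OXCT1mKO group had 2 libraries, named for Oxct1, which encodes the mitochondrial enzyme that activates acetoacetate in ketone body use, and the control group, labelled control by genotype and WT in the titles, also had 2. The driver of the knockout, any Cre allele in the controls, the strain and the number of animals per library are not stated in the labels. Levels are RPKM, reads per kilobase of a gene, normalized to the size of each library by the authors.

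S100 proteins are small proteins with a pair of EF-hand motifs, the helix-loop-helix that holds calcium, and most act as dimers that expose a binding surface when calcium rises. Inside cells they bind annexins, myosin and other targets. Some are also released, and S100A8 and S100A9, which together form calprotectin, then act on myeloid cells through receptors that include TLR4 and RAGE. Neutrophils and inflammatory monocytes carry calprotectin in large amounts, while S100A6, S100A10 and S100A11 are made by many cell types, among them epithelial and stromal cells.

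Across the family, S100a6 and S100a11 were lower in OXCT1mKO libraries and passed the test, and 0 members were higher past it. Of 10 members 9 were tested, since S100a14 had a mean below 1 RPKM, and the 2 calls, both downward, stand against 16.4% of all 12523 tested genes called downward. The test was limma on log2(RPKM + 1) with Benjamini-Hochberg adjusted p-values under 0.05 called. Unadjusted p-values were under 0.05 for 6 of the 9. The libraries of the groups did not overlap for 6 of the 9 (1 higher and 5 lower in OXCT1mKO), a share of 66.7%. Over all tested genes the share was 74.7%, with 37.6% higher and 37.0% lower, so separation by group was no more frequent in the family than elsewhere. The median log2 fold change was -0.32 over the 9 members and 0.00 over all tested genes. For a single gene, the smallest two-sided p of an exact permutation test in this design is 0.333. Whether the libraries came from separate animals is not stated, so the spread behind each p-value may be technical.

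**Figure D1:**
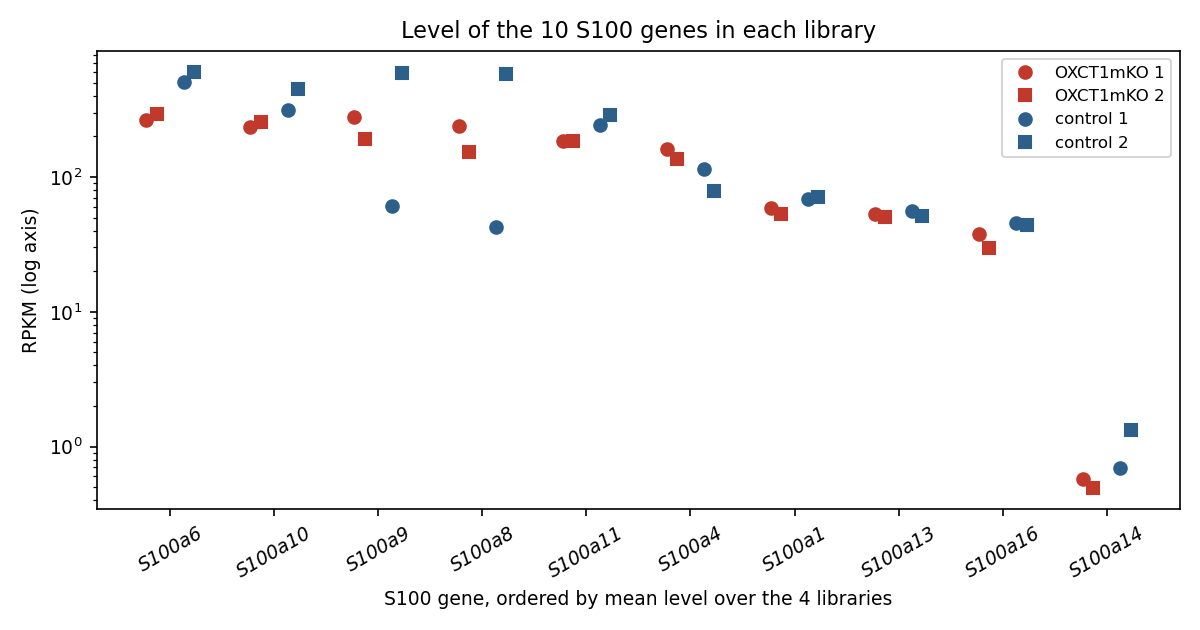
RPKM of each S100 gene in each library on a log axis, with OXCT1mKO libraries in red to the left of control libraries in blue; circles are replicate 1 and squares replicate 2. The controls lie far apart for S100a8 (42.6 and 582 RPKM) and S100a9 (60.4 and 592 RPKM), and closer together for the other tested members.

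Oxct1 itself was 14.7 and 15.4 RPKM in OXCT1mKO libraries, against 19.3 and 20.3 RPKM in controls, a log2 fold change of -0.37 ± 0.09 (SE, limma adjusted p 0.0346). RPKM summed over all genes to 325034 to 327811 in OXCT1mKO libraries and to 355951 to 377575 in controls, and the number of reads is unknown. Haemoglobin symbols took 8.81% of the sum in control 1 and at most 0.327% in each other library. All 14 macrophage markers were above 0 in every library, the lowest value being 6.25 RPKM. Markers of epithelial, endothelial and T cells were also present, and fewer cells of a type cannot be told apart from less RNA per cell in such bulk samples. Macrophage markers summed to 3939 and 4194 RPKM in OXCT1mKO libraries, against 4112 and 3096 RPKM in controls. Of the 14, 6 were called higher and 1 lower, where 16.4% of all tested genes were called in each direction. Lyz2, the myeloid lysozyme, was the one that fell, to 8.76 and 6.52 RPKM in OXCT1mKO libraries, against 688 and 744 RPKM in controls. The macrophage sums include Lyz2, which made up far more of them in controls.

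By mean level over the 4 libraries the order was S100a6 (416 RPKM), S100a10 (314), S100a9 (281), S100a8 (254), S100a11 (225), S100a4 (123), S100a1 (63.0), S100a13 (52.7), S100a16 (39.3) and S100a14 (0.77). Of neighbours in that order, S100a10 with S100a9 and S100a8 with S100a11 changed places between libraries, each pair keeping the order in only 2 of 4. The other neighbours kept it in all 4. The 9 tested members lay at percentiles 88.9 to 99.2 of level among tested genes. The family made up 0.462% and 0.416% of the RPKM sum in OXCT1mKO libraries, against 0.384% and 0.777% in controls. All members together summed to 1515 and 1351 RPKM in OXCT1mKO libraries, against 1448 and 2765 RPKM in controls, and the groups overlapped. Without S100a8 and S100a9 the members summed to 996 and 1005 RPKM in OXCT1mKO libraries, against 1345 and 1591 RPKM in controls, without overlap. The groups thus separated only with S100a8 and S100a9 left out. Of all tested genes 74.7% also separated the groups, and RPKM over all genes summed lower in OXCT1mKO libraries too.

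All 10 genes lie on chromosome 3 of build GRCm38, the assembly also called mm10. A first run of 8 spans S100a1 at 90511034 to S100a9 at 90695721. S100a11 and S100a10 lie 2825 kb further on, 28.8 kb apart. S100a8 and S100a9, also neighbours in the run, had log2 fold changes of 0.28 and 0.29. S100a4 and S100a6, on the same strand with 6.84 kb between them, had log2 fold changes of 0.63 and -0.98, the most different values among the tested members.

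The calprotectin genes were the most variable members. S100a8 (chromosome 3, 90668978 to 90670035, plus strand) was 239 and 154 RPKM in OXCT1mKO libraries, against 42.6 and 582 RPKM in controls. S100a9 (90692632 to 90695721, minus strand), its partner in the dimer, was 280 and 191 RPKM in OXCT1mKO libraries, against 60.4 and 592 RPKM in controls. For both genes control 1 was the lowest library, control 2 the highest and the OXCT1mKO libraries lay between them, so the groups overlapped. Between the controls S100a8 differed 13.7-fold and S100a9 9.81-fold. The difference exceeded that of 99.9% of tested genes for each. The OXCT1mKO libraries differed 1.55-fold and 1.46-fold. The log2 fold changes of 0.28 ± 1.22 for S100a8 and 0.29 ± 1.07 for S100a9 (SE) did not pass (limma adjusted p 0.873 and 0.850). Mean RPKM ran the other way, at 196 in OXCT1mKO against 312 in controls for S100a8 and 236 against 326 for S100a9. The sign thus depended on the scale of averaging. A single control set the direction: without control 1 the log2 fold changes were -1.60 and -1.35, and without control 2 they were 2.15 and 1.92. A fit with a lone control takes its spread within groups from the OXCT1mKO libraries, which differed far less than the controls, so its p-values are left out.

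The calprotectin pair moved together over the libraries. The ratio of S100a9 to S100a8, both in RPKM, was 1.17 and 1.24 in OXCT1mKO libraries, against 1.42 and 1.02 in controls. Over the 4 libraries, S100a9 was the tested gene whose centred log2(RPKM + 1) values lay nearest to those of S100a8, at a Euclidean distance of 0.34, where the median over 12522 genes was 2.72. The next were Gm5483 (0.92), Jchain (0.92), the joining chain of polymeric immunoglobulin, Asprv1 (0.97), a retroviral-like protease, and Slfn4 (1.08), a Schlafen gene of myeloid cells. After S100a8, those nearest to S100a9 were Asprv1 (0.65), Slfn4 (0.78), Mzb1 (0.81), an endoplasmic reticulum protein of plasma cells, and Clec4d (0.82), a C-type lectin of myeloid cells. These are likenesses over 4 points only.

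Transcripts of neutrophils followed that pattern in part. The 20 neutrophil markers summed to 286 and 280 RPKM in OXCT1mKO libraries, against 171 and 448 RPKM in controls, with 0 at zero in every library. Of 19 tested, control 1 held the lowest value for 15 and control 2 the highest for 12. Only 8 of the 19 had both, as S100a8 and S100a9 did. The share of all tested genes with that order is not given here. Lcn2, the siderophore-binding lipocalin of neutrophil granules, was 18.7 and 15.0 RPKM in OXCT1mKO libraries, against 8.34 and 42.3 RPKM in controls. Retnlg, a resistin-like gene of neutrophils, did not follow S100a8: it fell to 22.0 and 14.5 RPKM in OXCT1mKO libraries, against 45.6 and 60.5 RPKM in controls (log2 fold change -1.50 ± 0.24 (SE), limma adjusted p 0.0159). Padi4 also fell, and the other 17 tested markers did not pass. These 2 downward calls of 19 stand against 16.4% of all tested genes called downward. Ly6g, the surface marker that defines mouse neutrophils, was low in all 4 libraries: 0.418 and 0.054 RPKM in OXCT1mKO libraries, against 0.444 and 1.11 RPKM in controls. The part of neutrophil number in the S100a8 and S100a9 values was not tested.

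**Figure D2:**
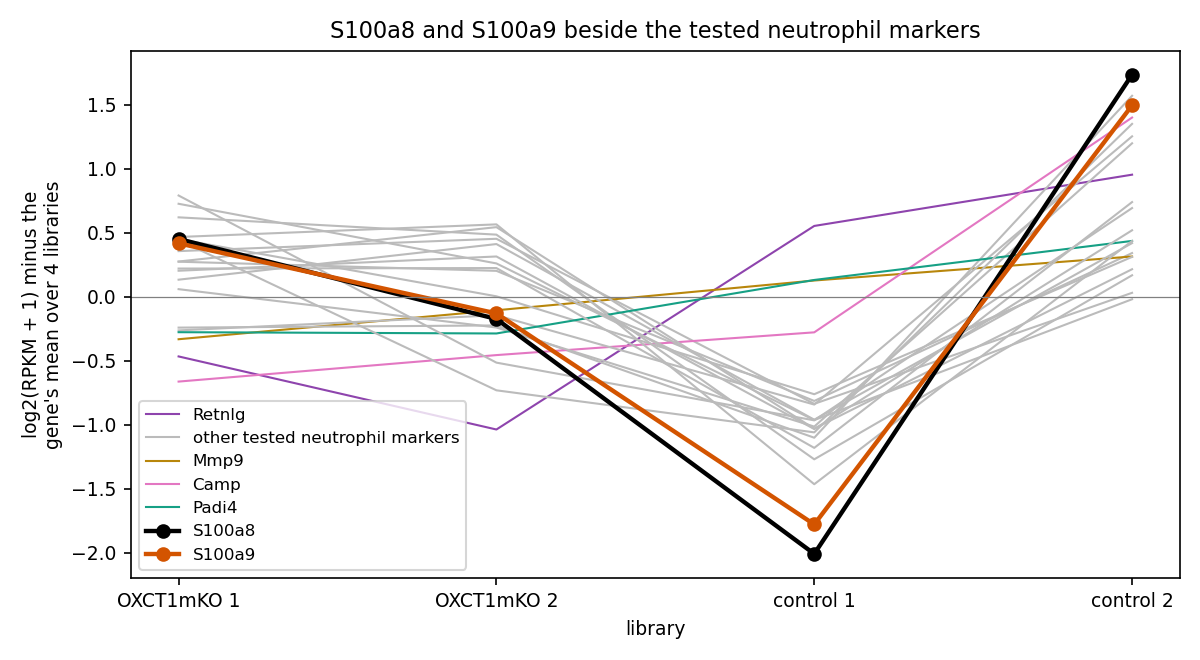
Centred log2(RPKM + 1) of S100a8 (black), S100a9 (orange) and 19 tested neutrophil markers (thin lines) in the 4 libraries. Most markers are lowest in control 1, as S100a8 and S100a9 are, while Retnlg, Padi4, Mmp9 and Camp (coloured) are not.

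The promoters of the calprotectin genes are shown because the genes moved together. The windows run from 250 bases before to 50 after the RefSeq start on build GRCm38.p6, chr3:90668821-90669120 on the plus strand for S100a8 and chr3:90695672-90695971 on the minus strand for S100a9. Capitals mark matches, on either strand, to TATAAA (the TATA box), TGANTCA (AP-1), TTGCNNAA (C/EBP), GAGGAA (the core of PU.1 and ETS sites) and GGGCGG (the GC box).
S100a8: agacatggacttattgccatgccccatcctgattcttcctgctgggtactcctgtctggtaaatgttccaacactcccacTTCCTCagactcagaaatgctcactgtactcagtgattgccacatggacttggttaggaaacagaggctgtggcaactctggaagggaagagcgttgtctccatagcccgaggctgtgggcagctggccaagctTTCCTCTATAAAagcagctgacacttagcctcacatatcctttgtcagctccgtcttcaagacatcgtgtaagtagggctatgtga
S100a9: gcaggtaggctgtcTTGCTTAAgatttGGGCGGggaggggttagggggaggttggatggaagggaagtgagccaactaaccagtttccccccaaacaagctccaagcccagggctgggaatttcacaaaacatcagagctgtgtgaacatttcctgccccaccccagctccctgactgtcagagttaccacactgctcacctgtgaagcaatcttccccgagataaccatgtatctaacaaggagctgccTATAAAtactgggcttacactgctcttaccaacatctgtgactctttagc
TATAAA began 30 bases before the annotated start in S100a8 and at the start itself in S100a9. S100a8 held 2 matches to GAGGAA, 1 of them directly before the TATA box with no shared base, and S100a9 held 1 each to TTGCNNAA and GGGCGG. Of 32851 such windows in the genome, 13.6% held TATAAA, 7.81% TGANTCA, 10.8% TTGCNNAA, 28.3% GAGGAA and 35.7% GGGCGG. These are matches of letters and not sites shown to be bound. Of the 10 members, 8 had a window in the RefSeq table.

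Among the annexin partners, S100a11 fell. S100a11 (chromosome 3, 93520488 to 93526287, plus strand), which binds annexin A1 and is active in membrane repair, was 184 and 186 RPKM in OXCT1mKO libraries, against 245 and 286 RPKM in controls. Both OXCT1mKO libraries lay below both controls. The means were 185 ± 1.67 RPKM in OXCT1mKO libraries and 266 ± 29.4 RPKM in controls (SD, n = 2), a log2 fold change of -0.52 ± 0.12 (SE, limma adjusted p 0.0311). The call was lost under quantile normalization, where the value was -0.25 (limma adjusted p 0.143), and without a filter on low genes (limma adjusted p 0.0654). Without OXCT1mKO 1 or OXCT1mKO 2 the limma adjusted p was 0.179 and 0.152. Transcripts of other genes, processed pseudogenes not listed in the table, held 44.7% of the 40-base words of the S100a11 transcripts, so its reads may be split or lost. Anxa1, its partner, was 72.2 and 80.7 RPKM in OXCT1mKO libraries, against 56.1 and 121 RPKM in controls, which overlapped.

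S100a10 (93555080 to 93564643, plus strand) has lost the ability to bind calcium and pairs with annexin A2 at the plasma membrane, where the complex takes up plasminogen and its activator. It was 237 and 257 RPKM in OXCT1mKO libraries, against 312 and 453 RPKM in controls, without overlap. Its log2 fold change of -0.61 ± 0.20 (SE) did not pass (limma adjusted p 0.0738). Without control 1 it was -0.87, and without control 2 it was -0.34. Anxa2 was 197 and 221 RPKM in OXCT1mKO libraries, against 283 and 355 RPKM in controls, and fell by 0.60 ± 0.15 (SE) on the log2 scale (limma adjusted p 0.0378). The ratio of S100a10 to Anxa2 was 1.20 and 1.16 in OXCT1mKO libraries, against 1.10 and 1.28 in controls, and the groups overlapped. The ratio of S100a11 to Anxa1 was less even, at 2.55 and 2.31 in OXCT1mKO libraries, against 4.37 and 2.37 in controls.

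The S100a11 promoter is shown because its gene fell and the window carries several matches to the same motifs. It lies at chr3:93520246-93520545 on the plus strand and has 61.7% G and C.
S100a11: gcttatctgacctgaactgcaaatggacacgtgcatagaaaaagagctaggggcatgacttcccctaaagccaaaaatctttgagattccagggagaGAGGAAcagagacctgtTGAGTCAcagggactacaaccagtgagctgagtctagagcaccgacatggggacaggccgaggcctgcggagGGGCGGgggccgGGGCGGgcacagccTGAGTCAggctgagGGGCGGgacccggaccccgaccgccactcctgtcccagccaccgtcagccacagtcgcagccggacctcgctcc
It held 2 matches to TGANTCA, beginning 136 and 38 bases before the start, 3 to GGGCGG and 1 to GAGGAA, and none to TATAAA.

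S100a6 fell by the most in the family, and S100a4, the member before it on the chromosome, was higher without passing. S100a6 (chromosome 3, 90612882 to 90624181, plus strand), called calcyclin and known from growing cells, was 265 and 292 RPKM in OXCT1mKO libraries, against 503 and 605 RPKM in controls. Both OXCT1mKO libraries lay far below both controls, and the means were 279 ± 18.8 RPKM in OXCT1mKO libraries and 554 ± 72.2 RPKM in controls (SD, n = 2). S100a6 fell by 0.98 ± 0.14 (SE) on the log2 scale (limma adjusted p 0.0136). It passed in all 7 alternatives that kept every library, with log2 fold changes of -0.98 to -0.76. Without OXCT1mKO 1 or OXCT1mKO 2 the values were -0.91 and -1.05 and did not pass (limma adjusted p 0.110 and 0.0769), in fits that called 1 and 10 genes of the whole table. Cacybp, whose product binds S100A6, fell too, to 30.2 and 32.3 RPKM in OXCT1mKO libraries, against 46.1 and 50.5 RPKM in controls (limma adjusted p 0.0156).

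S100a4 (90603771 to 90606045, plus strand), also called metastasin, binds the heavy chain of non-muscle myosin IIA and is made by macrophages, T cells and fibroblasts. It was the one tested member higher in both OXCT1mKO libraries than in both controls, at 160 and 137 RPKM in OXCT1mKO libraries, against 115 and 78.7 RPKM in controls. The log2 fold change of 0.63 ± 0.21 (SE) did not pass (limma adjusted p 0.0742). It passed under quantile normalization (0.81, limma adjusted p 0.0468). Without control 1 the value was 0.90, and without control 2 it was 0.36. The gene overlaps the predicted gene Gm42674 on the same strand, whose transcripts share 48.3% of its 40-base words. The ratio of S100a4 to S100a6 was 0.604 and 0.467 in OXCT1mKO libraries, against 0.229 and 0.130 in controls, and a scale factor per library cancels in this ratio. The mean log2 ratio differed by 1.62. The groups did not overlap, which had to follow because each gene already separated them in opposite directions, so the ratio adds no further evidence.

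**Figure D3:**
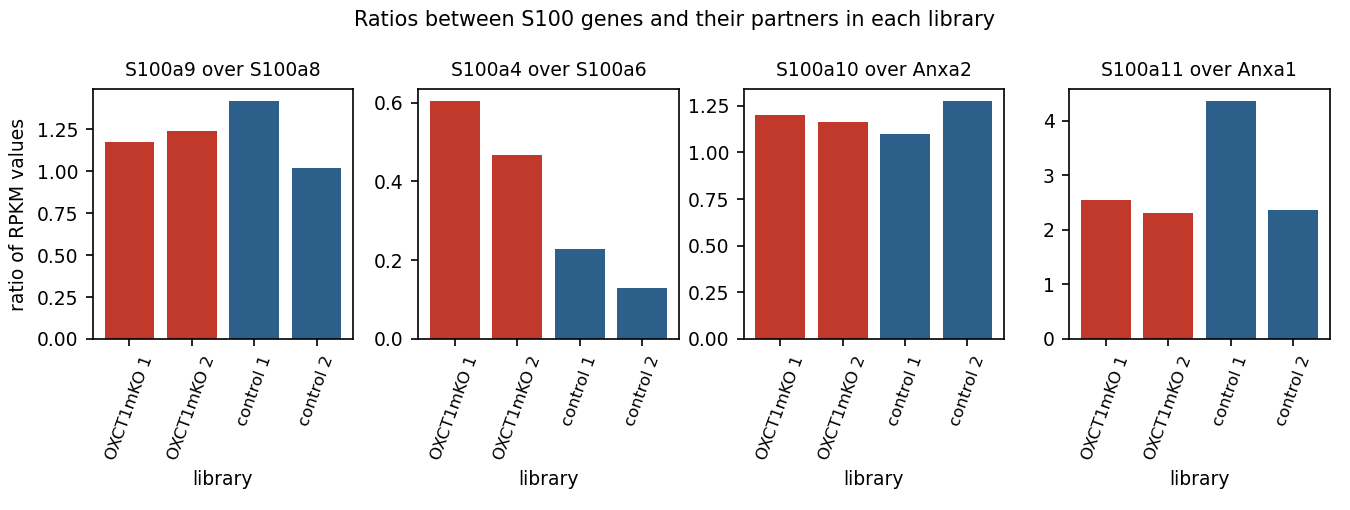
Ratios of RPKM values in each library (bars from 0, OXCT1mKO red, control blue) for S100a9 over S100a8, S100a4 over S100a6, S100a10 over Anxa2 and S100a11 over Anxa1. S100a4 over S100a6 separates the groups, 0.604 and 0.467 in OXCT1mKO against 0.229 and 0.130 in controls, which follows from each gene separating them in opposite directions. The other 3 ratios overlap.

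These members follow each other in the order of the members on the chromosome, with other genes not considered, and had opposite signs of fold change. Their promoters are at chr3:90603520-90603819 for S100a4 and chr3:90612644-90612943 for S100a6, both on the plus strand.
S100a4: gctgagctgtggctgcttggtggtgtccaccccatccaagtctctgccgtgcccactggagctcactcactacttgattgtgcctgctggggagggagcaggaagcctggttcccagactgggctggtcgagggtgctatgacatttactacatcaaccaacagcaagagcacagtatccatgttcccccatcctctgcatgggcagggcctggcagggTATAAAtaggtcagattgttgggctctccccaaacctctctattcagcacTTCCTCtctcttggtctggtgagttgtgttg
S100a6: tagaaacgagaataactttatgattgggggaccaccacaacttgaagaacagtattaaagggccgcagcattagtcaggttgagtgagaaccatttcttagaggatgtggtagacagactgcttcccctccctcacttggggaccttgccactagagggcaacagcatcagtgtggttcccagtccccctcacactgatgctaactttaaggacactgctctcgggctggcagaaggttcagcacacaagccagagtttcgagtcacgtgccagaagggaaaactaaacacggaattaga
S100a4 held TATAAA beginning 31 bases before the start and 1 match to GAGGAA after it. The S100a6 window held none of the 5 motifs searched.

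Levels of marker lists of other cells are given beside these members. The 12 epithelial markers summed to 994 and 958 RPKM in OXCT1mKO libraries, against 1196 and 1740 RPKM in controls, with 3 lower (Spint2, Cldn3 and Krt7), 1 higher (Cdh1), 8 not past the test and 0 at zero, a share of calls near the 32.8% of all tested genes. Krt18, a keratin of simple epithelia, was 268 and 234 RPKM in OXCT1mKO libraries, against 330 and 444 RPKM in controls. The ratio of S100a6 to Krt18 was 0.991 and 1.25 in OXCT1mKO libraries, against 1.52 and 1.36 in controls. That of S100a16 to Krt18 was 0.141 and 0.128 in OXCT1mKO libraries, against 0.138 and 0.099 in controls, and overlapped. T cell markers summed to 59.0 and 102 RPKM in OXCT1mKO libraries, against 260 and 180 RPKM in controls (6 of 10 tested lower, 0 higher, 0 at zero). Monocyte markers summed to 957 and 881 RPKM in OXCT1mKO libraries, against 405 and 555 RPKM in controls (8 of 13 higher, 0 lower, 0 at zero). The part of any of these cell types in the S100 values was not tested.

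The remaining members had small differences that did not pass. S100a1 (chromosome 3, 90511034 to 90514392, minus strand), known from heart and skeletal muscle for its action on calcium release, was 58.7 and 53.3 RPKM in OXCT1mKO libraries, against 68.8 and 71.2 RPKM in controls. The groups did not overlap, and the log2 fold change was -0.32 ± 0.09 (SE, limma adjusted p 0.0568). S100a16 (90537254 to 90543151, plus strand), a widely made member, was 37.7 and 29.9 RPKM in OXCT1mKO libraries, against 45.5 and 43.9 RPKM in controls. Its groups did not overlap either, with a log2 fold change of -0.40 ± 0.13 (SE, limma adjusted p 0.0751). Without OXCT1mKO 1 it was -0.56 and without OXCT1mKO 2 it was -0.24 (limma adjusted p 0.121 and 0.320). S100a13 (90514435 to 90524581, plus strand), which takes part in the release of FGF1 and interleukin 1 alpha without a signal peptide, was 52.9 and 50.0 RPKM in OXCT1mKO libraries, against 56.0 and 51.6 RPKM in controls. The groups overlapped and the log2 fold change was -0.06 ± 0.09 (SE, limma adjusted p 0.626), with a sign that turned under both other scalings.

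S100a1 and S100a13 lie head to head on opposite strands. They overlap by 98 bases in RefSeq, while the GENCODE positions printed here leave 42 bases between them. No strand setting of the counting is stated, so reads in any such overlap cannot be assigned. S100a14 (90526856 to 90528837, plus strand), an epithelial member, was low, at 0.574 and 0.493 RPKM in OXCT1mKO libraries, against 0.688 and 1.33 RPKM in controls. With no filter on low genes its log2 fold change was -0.37 ± 0.18 (SE, limma adjusted p 0.250). Of 7 further S100 genes in the table (S100a2, S100a3, S100a5, S100a7a, S100b, S100g and S100z), none exceeded 0.638 RPKM in any library, and S100z was listed at 0 in all 4.

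**Figure D4:**
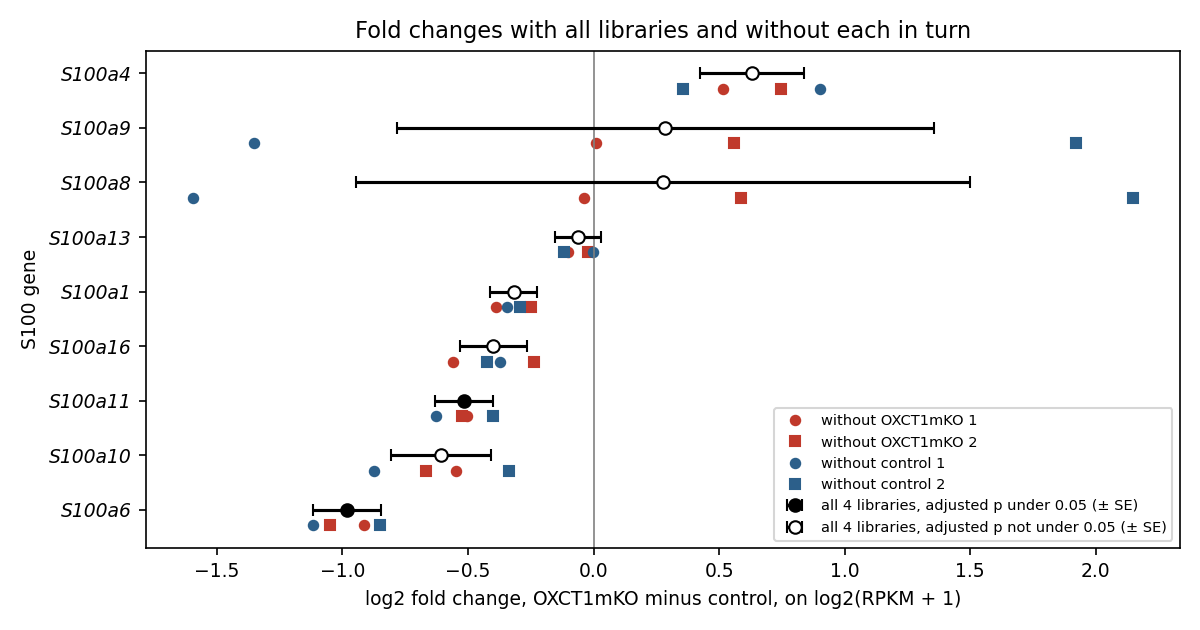
Log2 fold change (OXCT1mKO minus control, on log2(RPKM + 1)) of the 9 tested members with all 4 libraries (large circles with SE bars, filled where the limma adjusted p was under 0.05) and without each library in turn (small red and blue symbols). S100a6 keeps values of -1.12 to -0.85, whereas S100a8 spans -1.60 to 2.15 depending on which control is left out.

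Among receptors for released S100 proteins, 8 of 9 genes were tested, and 5 rose and 1 fell in OXCT1mKO by limma, against 32.8% of all tested genes called in either direction. Ly96, the TLR4 coreceptor also called MD-2, was 17.0 and 14.5 RPKM in OXCT1mKO libraries, against 8.84 and 7.99 RPKM in controls (log2 fold change 0.83 ± 0.12 (SE), limma adjusted p 0.0141). Cd14, which hands ligands to TLR4, rose to 226 and 274 RPKM in OXCT1mKO libraries, against 81.3 and 139 RPKM in controls. The scavenger receptor Cd36 rose by 0.86 ± 0.15 (SE) on the log2 scale. Bsg, the receptor of S100A9 also called EMMPRIN, was the one that fell, to 303 RPKM in each OXCT1mKO library, against 411 and 477 RPKM in controls. Tlr4 was 3.63 and 3.08 RPKM in OXCT1mKO libraries, against 1.97 and 2.73 RPKM in controls, and did not pass (limma adjusted p 0.129). Ager, which encodes RAGE, averaged under 1 RPKM and was not tested.

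Of 15 tested intracellular partners, 0 rose and 3 fell (Cacybp, Trp53 and Anxa2), near the 16.4% of all tested genes called downward, with a median log2 fold change of -0.11. Trp53, which encodes the tumour suppressor p53 and binds several S100 proteins, was 31.0 and 32.1 RPKM in OXCT1mKO libraries, against 43.3 and 44.7 RPKM in controls. Of the 8 genes of plasminogen activation, Eno1, a glycolytic enzyme that also binds plasminogen, was the one call, downward (limma adjusted p 0.0275). Plaur, the urokinase receptor, was 142 and 143 RPKM in OXCT1mKO libraries, against 71.9 and 122 RPKM in controls (limma adjusted p 0.131). Of 36 tested genes for other EF-hand proteins 5 rose and 5 fell, a share near the 32.8% called over all tested genes, with a median of 0.00. They included Myl6, a myosin light chain, lower at 160 RPKM in each OXCT1mKO library, against 226 and 260 RPKM in controls, and Ehd4, an endocytic ATPase, higher by 0.48 ± 0.10 (SE, limma adjusted p 0.0258).

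The other marker lists were counted in the same fit, in which 16.4% of all tested genes were called in each direction. Kupffer cell markers had 7 higher and 0 lower of 10, dendritic cell markers 7 higher and 0 lower of 9, and endothelial markers 8 higher and 0 lower of 10. Hepatocyte and hepatoma markers had 1 higher and 4 lower of 11, though their median log2 fold change was 0.60, so the list did not move in a single direction. Fibroblast and stellate cell markers had 0 higher and 2 lower of 8. B cell markers had 0 calls of 6 and erythroid markers 0 of 5, and in both lists 0 genes had an unadjusted p under 0.05. Their median log2 fold changes were 0.26 and -3.80. The controls lay far apart for erythroid genes. Hba-a1, an alpha globin, was 104 and 94.0 RPKM in OXCT1mKO libraries, against 7794 and 265 RPKM in controls.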

How the data were processed

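Macrophages were flow-sorted after collagenase digestion and Percoll enrichment, per the labels' protocols, which name no sort antibodies and mention a microarray although the values are from sequencing. RPKM values were deposited by the authors as 1 table of gene symbols by libraries, each column of which was matched to its sample by title. Per the submitters' processing notes, STAR 2.10, R 4.0.5 and build mm10 were used. The counter, its strand setting, the gene lengths and the definition of library size are not stated in the labels. Because RPKM values are not counts, no count model was fitted. At the best relative depth, 8.30% to 10.5% of the ratios between values of genes averaging up to 0.05 RPKM came within 0.1% of a ratio of whole numbers up to 5, so reads were not recovered.

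Genes with a mean of at least 1 RPKM (12523) were fitted in limma 3.58.1 under R 4.3.3 on log2(RPKM + 1), with a trend by level in the moderated variance. The tests were two-sided, with Benjamini-Hochberg adjustment over all genes tested and a threshold of 0.05. Fold changes on this scale understate those of low genes. The fit was also run on simulated data with independent normal noise in each library, which does not test the dependence on single libraries seen here. Positions came from GENCODE mouse release M21 (GRCm38) and promoters from RefSeq (GRCm38.p6).

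The 18 gene lists, with the list of members among them, were chosen with earlier results of these data known. Named genes were the members, Oxct1, up to 4 genes per list with the smallest p, and the 5 genes nearest to S100a8 and to S100a9. Lyz2, Lcn2, Ly6g, Krt18, Anxa1, Tlr4, Ager and the list members named as few calls were named after their values were seen. Alternatives were another pseudocount, other filters, other scalings, no variance trend, each library left out and the replicate number as a block.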

Additional observations from a re-analysis of the deposited data

How the results depend on the processing

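All tests rest on 2 libraries per group with unknown read depth. With no filter on low genes, 2340 of 19514 genes passed, against 4110 of 12523, and 1 member passed, against 2. S100a11 then lost its call at an unchanged -0.52, and under quantile normalization at -0.25. S100a4 gained one under quantile normalization, at 0.81. The sign of S100a13 turned to 0.037 with equal RPKM sums without haemoglobin and to 0.022 with quantile normalization. Those scalings moved the median of all tested genes to 0.09 and -0.04. The pseudocount of 0.1, a minimum mean of 5 RPKM and the fit without the variance trend changed no member's call.

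Leaving out 1 library at a time, the count of genes passing was 1 to 4418 and the count of members passing 0 to 6. Counts of 1 and 10 genes came without OXCT1mKO 1 and OXCT1mKO 2, where the lone OXCT1mKO library is taken to vary as the controls do, and with 0 members passing. The log2 fold change ranged from -1.60 to 2.15 for S100a8, from -1.35 to 1.92 for S100a9, from 0.36 to 0.90 for S100a4, from -1.12 to -0.85 for S100a6, from -0.87 to -0.34 for S100a10, from -0.63 to -0.40 for S100a11, from -0.56 to -0.24 for S100a16 and from -0.39 to -0.25 for S100a1. S100a8 was -0.04 without OXCT1mKO 1. Where a control was left out, the lone control was taken to vary as the OXCT1mKO libraries do. The cause of these shifts was not tested.

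The replicate numbers of the labels are not stated to pair libraries, and the deviations of same-numbered libraries correlated at 0.05 across genes, which are not independent. With the replicate block 4 members passed, S100a4 (0.63) and S100a10 (-0.61) having gained a call, and 3606 genes in all.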
